A study of Mus musculus with 6 samples.

Results

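Genes of the nuclear pore and of nuclear transport were followed in stromal cells of mouse bone marrow that had taken up apoptotic thymocytes. The members were picked by symbol: all genes named Nup, Kpna, Kpnb, Ipo, Xpo or Tnpo with a number (Xpot included), together with Ran, Ranbp1, Ranbp2, Rangap1, Rcc1 and Cse1l. The rule found 51 of the 53735 features in the count table, and no measured value entered it. The fed group (3 libraries) consisted of wild-type mesenchymal stromal cells that received 5000000 dye-labelled apoptotic thymocytes per well and were kept for 24 h at 5% oxygen, after which label-carrying cells were sorted. The control group (3 libraries) consisted of wild-type stromal cells without thymocytes, whose oxygen level in the last 24 h is not among the labels. Cells of both groups had been sorted from marrow as negative for lineage markers, CD45 and CD31 and positive for CD51, and had grown at 2% oxygen until passage 2 or 3. RNA (200 ng) went into a stranded library preparation for polyadenylated transcripts, and the values are raw counts per gene. No label says if replicate libraries are separate cultures or animals, so the p-values cover only how much these samples vary, and that variation may be technical.

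The nuclear pore complex is the gated channel through the nuclear envelope. An outer ring of Y-shaped complexes and an inner ring form its scaffold, nucleoporins rich in phenylalanine-glycine repeats fill the channel, and filaments and a basket extend from its faces. Karyopherins carry proteins and some RNAs through it: importins bind cargo in the cytoplasm and exportins in the nucleus. Direction comes from the small GTPase Ran, which is loaded with GTP on chromatin by Rcc1 and hydrolyses it in the cytoplasm with the help of Rangap1 and Ranbp1. In dividing animal cells the pore is taken apart and rebuilt, and Ran and the importins also control spindle assembly.

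Libraries held 19069074 to 22410047 counts. Stromal marker genes summed to 35994 to 38358 CPM in fed cells and 41413 to 44009 CPM in control cells (CPM, counts per 1000000 of the scaled library total). All 12 were tested, and 8 of them (66.7%) were lower in fed cells, against 19.0% of all tested genes. Itgav, which encodes the sorted marker CD51, averaged 276 ± 16.4 CPM in fed cells and 289 ± 11.5 CPM in control cells (SD, n = 3 each), and Ptprc (CD45) and Pecam1 (CD31) stayed below 1 CPM in all libraries. The 13 thymocyte and T-cell markers together reached 0.735 to 1.63 CPM in fed cells and 0.417 to 0.895 CPM in control cells, and 3 of them had no count in any library. The 8 macrophage markers summed to 14.2 to 16.0 CPM in fed cells and 9.82 to 11.1 CPM in control cells, and Lyz2 was the only 1 called higher. The sums were 4.04 to 5.40 CPM in fed cells and 5.79 to 6.11 CPM in control cells for endothelial markers, and 0.616 to 1.15 CPM in fed cells and 0.231 to 0.283 CPM in control cells for other blood cells. The endothelial marker Vwf was lower (log2 fold change -0.72 ± 0.20, adjusted p = 0.00703) and the neutrophil marker S100a8 higher (2.08 ± 0.45, adjusted p = 0.000922) in fed cells. S100a8 averaged 0.175 CPM in control cells and passed the filter on low counts only through its fed libraries. It was not called with DESeq2 or with a stricter filter. Some of these markers were thus higher and others lower in fed cells, and their part in the results below was not tested. In bulk RNA, fewer cells of a type and less RNA per cell cannot be told apart.

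Transcripts of the pore and of its transport factors were mostly higher in cells that had taken up thymocytes, by small amounts. Of 47 members that passed the filter on low counts, 36 rose and 2 fell at an adjusted p under 0.05 in edgeR's quasi-likelihood test. Over all 13092 genes tested, 20.5% rose and 19.0% fell. Most members were abundant, and among the 10134 genes averaging 5 CPM or more the background was 24.4% higher and 21.8% lower. The members that rose included all 11 genes placed in the rings, all 4 genes of the Ran cycle and the importin alpha Kpna2. Nup98, which also encodes a subunit of the outer ring, was placed in the channel and did not pass. The 2 that fell were Ranbp2, the large protein of the cytoplasmic filaments, and Kpna2-ps, a pseudogene with few counts.

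The median log2 fold change over the 47 members was 0.26, against -0.01 over all tested genes, where positive values mean higher in fed cells. Only 18 members rose by at least 1.25-fold (9.14% of all tested genes did), and 3 by at least 1.5-fold (2.77% of all tested genes). These 3 were Kpna2, Nup43 and Rcc1. In 39 members every fed library lay above every control library, which held for 25.1% of all tested genes. In 3 members every fed library lay below, as in 24.0% of all tested genes, and in 5 the groups overlapped. The 9 members that did not pass were Nup98, Xpo7, Xpot, Kpna6, Tnpo1, Ipo13, Tnpo3, Tnpo2 and Ipo8. Untested were Nup62cl, Kpna7, Nup210l and Nup210, each with 12 counts or fewer per library. Replicates were tight: the median coefficient of variation over members was 3.16% in fed cells and 2.89% in control cells. Over all tested genes it was 5.07% in fed and 5.22% in control cells. These are genes of unlike level, as the median control level was 81.1 CPM over the tested members and 22.8 CPM over all tested genes.

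**Figure D1:**
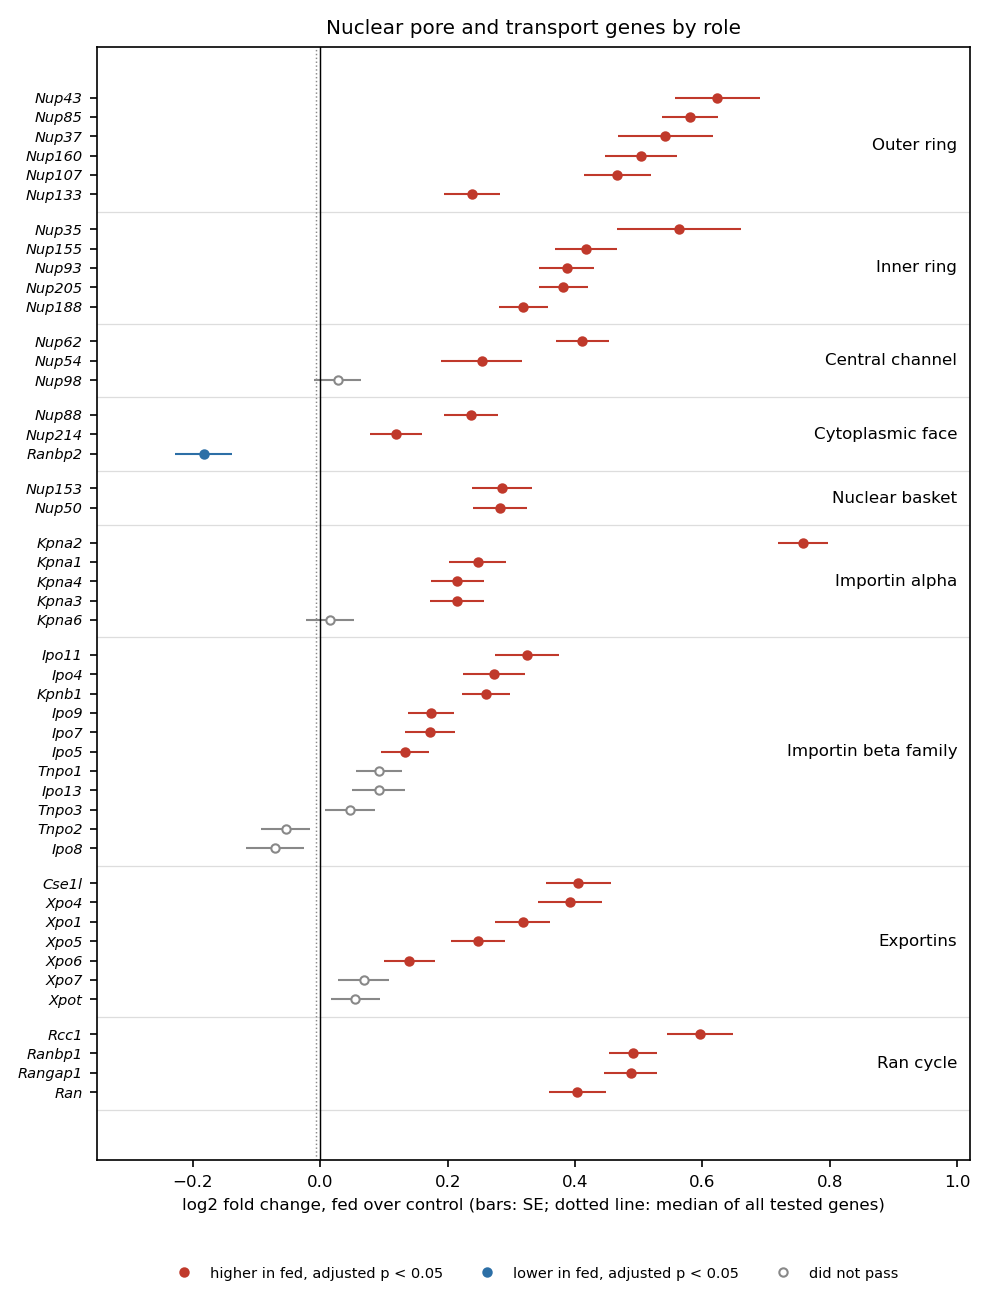
Log2 fold change of fed over control cells (horizontal axis) for the 46 tested members other than Kpna2-ps, grouped by role; points are estimates from edgeR, bars are standard errors, filled points passed an adjusted p under 0.05 and open points did not. All genes drawn under outer ring, inner ring, nuclear basket and Ran cycle lie right of 0. Tpr, Sec13 and Seh1l, which the symbol rule does not match, are not drawn, and Nup98 is drawn with the channel. Kpna2 is farthest right at 0.76, and Ranbp2 is the filled point left of 0.

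Start-site windows from RefSeq (250 bases before to 50 bases after a start, build GRCm38.p6) were found for 40 of the 51 members, 47 windows in all. Shown are those of Ran, Ranbp1 and Kpna2, the Ran cycle genes and the importin alpha with the most transcript per length, of Nup107, from the outer ring, and of Ranbp2, which moved the other way. Capitals mark matches on either strand to 6 motifs. The NRF1 motif is a palindrome, made of GCGCA joined to its reverse complement. For E2F the letters TTTGGCGC were searched, or else TTTCCCGC. The E-box has the letters CACGTG and the cell-cycle homology region (CHR) has TTTGAA. The CCAAT box is named by its letters, and the ETS motif was searched as CCGGAAG. The Ran window (chr5:129019906-129020205, plus strand) has 1 NRF1 and 1 E-box match, the Ranbp1 window (chr16:18248645-18248944, minus strand) has 1 E2F, 1 CHR and 1 CCAAT match, and the Kpna2 window (chr11:106999476-106999775, minus strand) has 1 CHR and 2 CCAAT matches. The Nup107 window (chr10:117792656-117792955, minus strand) has 1 NRF1 and 3 ETS matches, and the Ranbp2 window (chr10:58446602-58446901, plus strand) has 1 E-box match. None of these matches overlap. All are written 5′ to 3′ on the gene's strand.
Ran: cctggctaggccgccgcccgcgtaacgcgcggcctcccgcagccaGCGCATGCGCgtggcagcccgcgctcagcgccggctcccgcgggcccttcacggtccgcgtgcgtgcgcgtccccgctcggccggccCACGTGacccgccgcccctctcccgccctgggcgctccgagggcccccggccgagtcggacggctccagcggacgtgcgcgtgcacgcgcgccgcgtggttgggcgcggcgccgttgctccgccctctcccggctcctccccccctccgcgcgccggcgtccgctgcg
Ranbp1: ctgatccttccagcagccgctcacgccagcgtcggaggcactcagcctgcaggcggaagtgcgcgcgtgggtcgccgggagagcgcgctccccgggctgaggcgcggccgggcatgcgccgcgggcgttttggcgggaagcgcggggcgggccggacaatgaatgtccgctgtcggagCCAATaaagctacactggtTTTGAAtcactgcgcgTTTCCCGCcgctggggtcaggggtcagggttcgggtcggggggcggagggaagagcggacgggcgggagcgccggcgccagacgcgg
Kpna2: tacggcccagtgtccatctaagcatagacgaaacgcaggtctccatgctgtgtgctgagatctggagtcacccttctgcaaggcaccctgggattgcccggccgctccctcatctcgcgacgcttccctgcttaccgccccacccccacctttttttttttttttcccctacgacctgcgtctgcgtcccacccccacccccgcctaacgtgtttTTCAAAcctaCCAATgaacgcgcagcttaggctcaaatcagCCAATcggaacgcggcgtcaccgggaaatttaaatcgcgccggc
Nup107: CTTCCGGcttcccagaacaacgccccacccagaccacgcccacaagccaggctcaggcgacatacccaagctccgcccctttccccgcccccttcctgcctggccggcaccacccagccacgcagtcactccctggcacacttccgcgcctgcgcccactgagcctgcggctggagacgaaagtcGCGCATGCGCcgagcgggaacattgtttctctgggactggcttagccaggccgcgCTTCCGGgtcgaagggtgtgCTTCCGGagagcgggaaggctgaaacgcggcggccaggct
Ranbp2: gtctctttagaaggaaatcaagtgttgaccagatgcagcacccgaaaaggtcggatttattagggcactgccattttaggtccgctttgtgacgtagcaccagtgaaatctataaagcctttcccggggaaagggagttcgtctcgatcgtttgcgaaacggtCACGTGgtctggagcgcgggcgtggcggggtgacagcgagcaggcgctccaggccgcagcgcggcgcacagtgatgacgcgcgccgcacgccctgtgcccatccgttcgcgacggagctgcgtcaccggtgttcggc

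The NRF1 letters stood in windows of 5 members, Ran, Nup107, Nup50, Nup62 and Xpo5, which is 12.5% of the 40 members with a window. Of the 27025 mouse genes with a window, 1.07% held them, and of the 9299 tested genes with a window 2.34% did. All 5 were higher in fed cells, as were 29 of all 40 members with a window. The E-box letters occurred in 9 members (22.5%, against 8.09% of all genes and 11.9% of tested genes). CHR letters occurred in 10 of the 40 members, against 20.2% of all genes and 13.9% of tested genes. CCAAT occurred in 21 members (52.5%, against 41.1% of all genes and 43.2% of tested genes), ETS letters in 6 (15.0%, against 9.93% of all and 19.9% of tested genes) and E2F letters in 2 (5.00%, against 1.80% of all and 3.54% of tested genes). Of those with E-box letters 6 were higher in fed cells, of those with CHR letters 7 and of those with CCAAT 16. With ETS letters 5 were higher, and with E2F letters 1. The motifs were chosen after the members' values had been seen, and a match describes the letters only.

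All 4 genes of the Ran cycle rose, and their median log2 fold change was 0.49. For this and the counts by role below, 20.5% of all tested genes rose and 19.0% fell. Ran itself, on chromosome 5 (chr5:129020069-129024323), measured 359, 393 and 374 CPM in fed cells, against 267, 285 and 300.2 CPM in control cells. The fed libraries all lay above the control libraries, with a log2 fold change of 0.40 ± 0.044 (adjusted p = 7.92e-07); here and below, the error of a log2 fold change is its standard error from 3 fed and 3 control libraries. Rcc1, the exchange factor that loads Ran on chromatin, had 41.4, 43.2 and 44.0 CPM in fed cells, against 28.0, 28.3 and 28.9 CPM in control cells. It showed the largest change of the cycle, 0.60 ± 0.052 (adjusted p = 2.11e-08) on the log2 scale, with the replicates of each group close together and no overlap.

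Ranbp1, which helps the GTPase-activating protein to act on Ran, measured 148, 156 and 151 CPM in fed cells, against 106, 109.8 and 109 CPM in control cells. Fed libraries were again above all control libraries, by 0.49 ± 0.038 (adjusted p = 4.45e-09) on the log2 scale. Rangap1, the GTPase-activating protein, had 216, 216 and 217 CPM in fed cells, against 146, 152 and 165 CPM in control cells. The fed values were nearly identical to each other, control 3 was the highest of its group, and the difference was 0.49 ± 0.041 (adjusted p = 1.6e-08). Transcripts of the exchange factor and of the activating protein were thus both higher in fed cells. A small part of the exons of Rcc1 (3.51%) is shared with Snhg3 on the same strand, and 16.9% of those of Ranbp1 with Gm49776, also on the same strand. Snhg3 is a feature of the count table, but the symbol Gm49776 is absent from it.

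**Figure D2:**
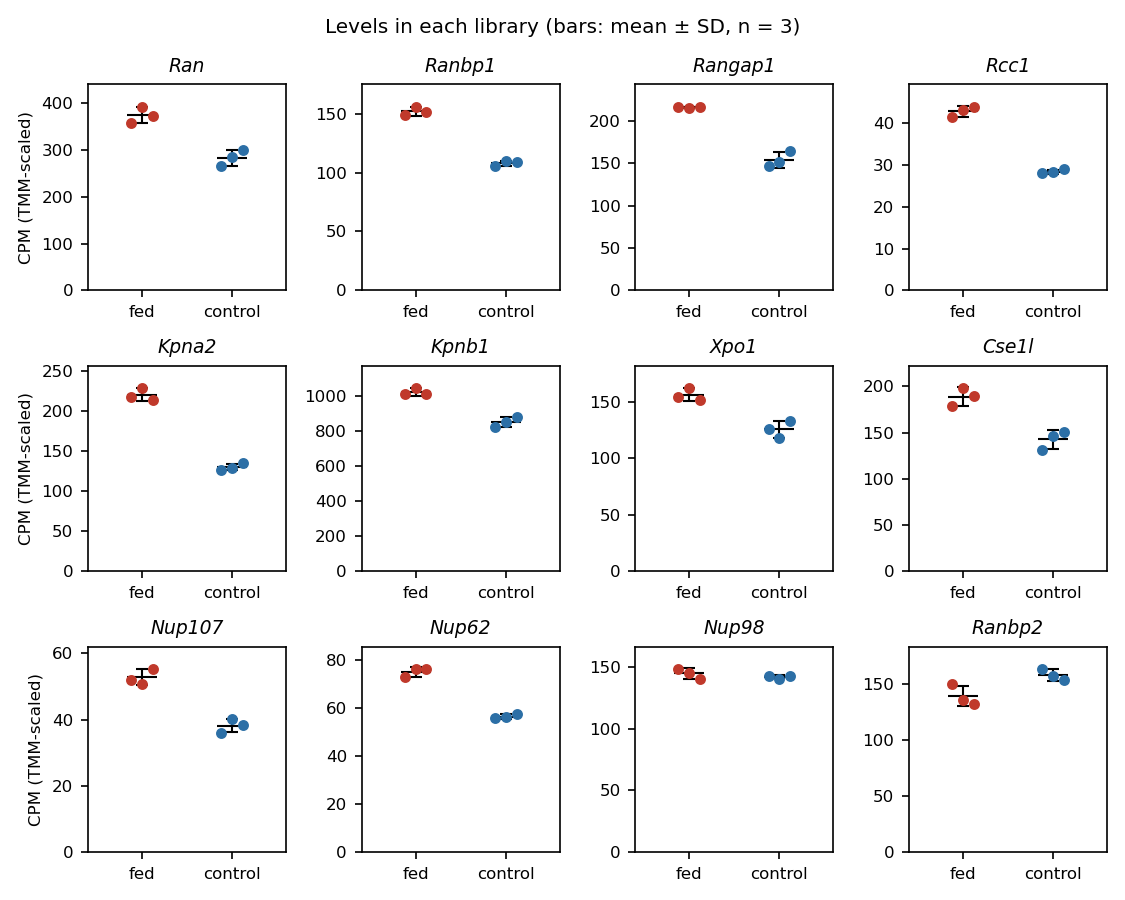
Level in CPM (vertical axis, from 0) of 12 members in each of the 3 fed (left) and 3 control (right) libraries; points are libraries and bars are mean ± SD. Fed libraries lie above control libraries for Ran, Ranbp1, Rangap1, Rcc1, Kpna2, Kpnb1, Xpo1, Cse1l, Nup107 and Nup62, overlap with them for Nup98 and lie below them for Ranbp2.

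Importin alpha proteins are the adaptors that bind the classical nuclear localization signal, and 4 of the 5 tested paralogs rose. Kpna2, on chromosome 11 (chr11:106988629-106999541), a paralog that is also known as a regulator of spindle assembly factors, measured 218, 229 and 214 CPM in fed cells, against 127, 129.5 and 135 CPM in control cells. No other member of the transport machinery moved as far: its log2 fold change was 0.76 ± 0.039 (adjusted p = 3.2e-11), and fed values were far above all control values. Kpna1 had 72.0, 74.0 and 74.5 CPM in fed cells, against 59.3, 60.9 and 65.8 CPM in control cells. Its groups did not overlap either, but the change was smaller, at 0.25 ± 0.045 (adjusted p = 0.000177). Kpna4 had 162, 174 and 179 CPM in fed cells, against 143, 149.9 and 151 CPM in control cells, with all fed libraries above the controls and a log2 fold change of 0.21 ± 0.041 (adjusted p = 0.000321). Kpna3 was close to it at 0.21 ± 0.043 (adjusted p = 0.000433). Kpna6 averaged 129 ± 3.25 CPM in fed cells and 128 ± 1.45 CPM in control cells (SD, n = 3 each), its groups overlapped and it did not pass (log2 fold change 0.02 ± 0.037, adjusted p = 0.771). Kpna7, known from oocytes and early embryos, had 1 count in 1 control library and none in the others.

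The importin alpha paralogs were also compared as shares of their sum. Per kilobase of exon, Kpna2 made up 51.2%, 51.2% and 50.0% of the summed level of the 5 paralogs in fed libraries, against 40.6%, 40.4% and 40.9% in control libraries. The mean share was 50.8% ± 0.67 in fed cells and 40.6% ± 0.26 in control cells (SD, n = 3 each), a difference of 10.2 percentage points. Every fed share lay above every control share, and the 2-sided exact permutation test gave p = 0.1, the smallest that 3 libraries against 3 allow. Kpna6 took 12.7% ± 0.36 in fed cells and 17.0% ± 0.62 in control cells. Shares sum to a whole, so those of the other 4 paralogs were lower in fed cells although none of the 4 fell in level.

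**Figure D3:**
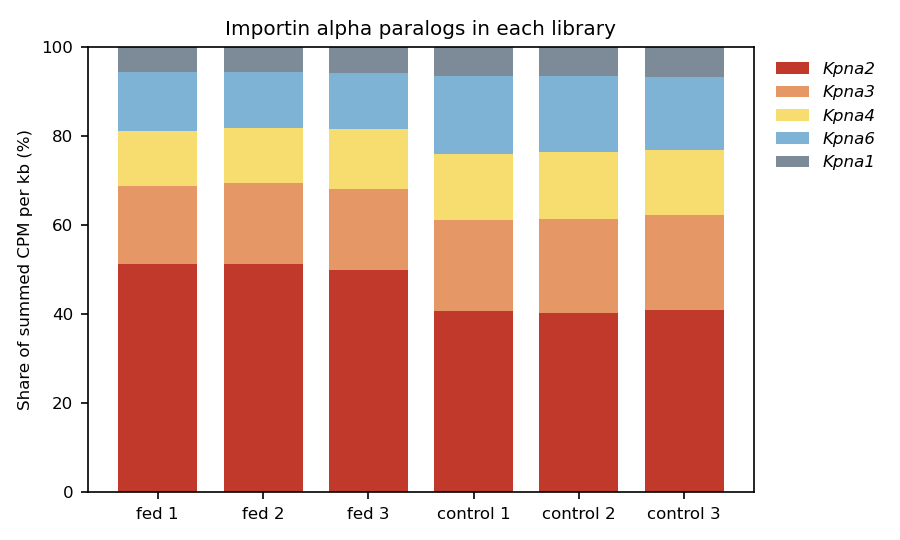
Share in percent (vertical axis) of each importin alpha paralog in the summed level per kilobase of exon, for each fed library (left 3 bars) and control library (right 3 bars). The Kpna2 share is 50.0% to 51.2% in fed libraries and 40.4% to 40.9% in control libraries.

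Among the import receptors of the importin beta family, which dock at the pore, 6 of 11 genes rose (54.5%, against 20.5% of all tested genes). None fell (19.0% of all tested genes did), and their median log2 fold change was 0.13. None of the 11 was lower at an unadjusted p under 0.05 or with DESeq2 either. Kpnb1 is importin beta itself, the partner of the importin alpha adaptors. It measured 1007, 1045 and 1006 CPM in fed cells, against 822, 852 and 880.2 CPM in control cells, the highest of all members in CPM. All fed libraries were above the control libraries, by 0.26 ± 0.038 (adjusted p = 1.73e-05) on the log2 scale. Ipo11, which imports ubiquitin-conjugating enzymes, had 58.5, 60.4 and 55.4 CPM in fed cells, against 43.5, 47.7 and 48.0 CPM in control cells. It had the largest change of these 11 genes, at 0.32 ± 0.051 (adjusted p = 3.3e-05), and no overlap. Ipo4, an importer of histones, had 50.7, 48.8 and 52.6 CPM in fed cells, against 40.6, 42.1 and 43.3 CPM in control cells. Its fed libraries were all higher than its control libraries (0.27 ± 0.049, adjusted p = 0.000151). Of its exon length, 55.3% is shared on the same strand with Gm49378, an annotated gene whose symbol is absent from the count table.

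The remaining called importers of basic cargo, among them histones and ribosomal proteins, rose by less: Ipo9 by 0.17, Ipo7 by 0.17 and Ipo5 by 0.13 on the log2 scale (adjusted p = 0.000677, 0.00163 and 0.00824). Without fed 2 the adjusted p of Ipo5 was 0.0518. The transportins did not pass. Tnpo1, the receptor for proline-tyrosine signals, came nearest, at 0.09 ± 0.036 (adjusted p = 0.0508) with no overlap between the groups, and passed without control 3 (adjusted p = 0.0282). Its close relative Tnpo2 was at -0.05 ± 0.038 (adjusted p = 0.269), and Tnpo3, which imports SR splicing factors, at 0.05 ± 0.040 (adjusted p = 0.378), both with overlapping groups. Ipo13 was at 0.09 ± 0.042 (adjusted p = 0.0917). Ipo8, known to import Argonaute proteins, had 57.3, 57.9 and 52.8 CPM in fed cells, against 58.0, 58.9 and 59.5 CPM in control cells. All its fed libraries lay just below the controls, by an amount that did not pass (-0.07 ± 0.046, adjusted p = 0.237).

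Of the 7 exportins, 5 rose (71.4%, against 20.5% of all tested genes) and none fell (19.0% of all tested genes did). Their median log2 fold change was 0.25. None was lower at an unadjusted p under 0.05 or with DESeq2. Cse1l carries importin alpha back to the cytoplasm once its cargo is released. It measured 179, 199 and 189 CPM in fed cells, against 131, 146 and 151 CPM in control cells. Fed and control libraries did not overlap, and the log2 fold change was 0.41 ± 0.051 (adjusted p = 1.17e-05). Xpo4, an exporter of the translation factor eIF5A, had 41.5, 41.8 and 40.9 CPM in fed cells, against 32.1, 31.0 and 31.5 CPM in control cells. The values of each group lay within 2 CPM of each other, and the change was 0.39 ± 0.050 (adjusted p = 2.92e-06). Xpo1, the main exporter of proteins with leucine-rich signals, had 155, 163 and 152 CPM in fed cells, against 126, 118 and 133 CPM in control cells. Its fed libraries were all above its control libraries, by 0.32 ± 0.044 (adjusted p = 8.55e-06).

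The exporter of microRNA precursors, Xpo5, rose by 0.25 (adjusted p = 8.98e-05), and the actin exporter Xpo6 by 0.14 (adjusted p = 0.00888, but 0.0576 without control 1). Xpot, which exports transfer RNA, averaged 115 ± 3.76 CPM in fed cells and 111 ± 1.35 CPM in control cells (SD, n = 3 each). The groups overlapped and the change did not pass (0.05 ± 0.038, adjusted p = 0.275). Xpo7 was at 0.07 ± 0.040 (adjusted p = 0.189), with fed libraries only just above the controls. Karyopherins together, importins and exportins, thus had 15 of 23 tested members higher (65.2%) and none lower, with a median of 0.17. Over all tested genes 20.5% were higher and 19.0% lower.

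Among nucleoporins, 17 of 19 tested genes rose (89.5%, against 20.5% of all tested genes) and 1 fell (5.26%, against 19.0%). Their median log2 fold change was 0.38. In the outer ring 6 of 6 rose, with a median of 0.52. This count leaves out Nup98, which also encodes an outer-ring subunit and is described with the channel below. Proteins of the outer ring also go to kinetochores in mitosis. Nup43 measured 20.3, 20.6 and 19.9 CPM in fed cells, against 13.4, 13.2 and 12.8 CPM in control cells. Fed values were all higher, by 0.62 ± 0.067 (adjusted p = 2.96e-07). Nup85 had 60.9, 62.3 and 62.2 CPM in fed cells, against 41.6, 41.2 and 41.3 CPM in control cells. Its replicates were very close in both groups, and the change was 0.58 ± 0.044 (adjusted p = 3.93e-09). Nup37 had 19.3, 21.6 and 23.5 CPM in fed cells, against 14.5, 14.7 and 15.2 CPM in control cells, with more spread in fed cells but no overlap (0.54 ± 0.075, adjusted p = 8.23e-06). Nup107, a core subunit of the Y-shaped complex, had 52.1, 50.8 and 55.4 CPM in fed cells, against 36.1, 40.1 and 38.5 CPM in control cells. All its fed libraries exceeded all its control libraries, by 0.47 ± 0.052 (adjusted p = 5.82e-07). Nup160 changed by 0.50 and Nup133, the subunit at the tip of the stem, by 0.24 (adjusted p = 5.65e-07 and 0.000239). Sec13 and Seh1l, subunits of the same complex that the symbol rule does not match and that were looked up after the values were seen, stood at 0.16 ± 0.037 (adjusted p = 0.00205) and 0.02 ± 0.039 (adjusted p = 0.768), so Seh1l did not pass.

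All 5 genes of the inner ring rose, with a median of 0.39. Nup35, the small subunit near the membrane, measured 12.0, 10.6 and 11.5 CPM in fed cells, against 7.32, 8.64 and 7.05 CPM in control cells. Its groups did not overlap, and its change was 0.56 ± 0.097 (adjusted p = 0.000106), with the widest error of the ring at this low level. Nup155, which links the ring to the membrane, had 62.6, 57.1 and 57.4 CPM in fed cells, against 45.4, 43.5 and 43.7 CPM in control cells. Fed cells were above control cells in all libraries (0.42 ± 0.049, adjusted p = 9.88e-07). Nup93, the hub of the ring, had 82.6, 89.2 and 89.9 CPM in fed cells, against 65.4, 68.0 and 66.8 CPM in control cells, again without overlap (0.39 ± 0.043, adjusted p = 5.22e-07). The large scaffold proteins Nup205 and Nup188 changed by 0.38 and 0.32 (adjusted p = 1.25e-07 and 1.37e-06).

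In the channel, 2 of 3 tested genes rose. Nup62, which lines the channel with phenylalanine-glycine repeats, measured 72.7, 76.0 and 76.4 CPM in fed cells, against 55.8, 56.1 and 57.5 CPM in control cells. Every fed library was above every control library, by 0.41 ± 0.042 (adjusted p = 1.59e-07). Its partner Nup54 had 26.8, 29.0 and 29.5 CPM in fed cells, against 24.4, 25.1 and 22.1 CPM in control cells, a change of 0.25 ± 0.064 (adjusted p = 0.00323) without overlap. Nup98 did not follow. It measured 148, 145 and 140.3 CPM in fed cells, against 142, 140.3 and 143 CPM in control cells, the groups overlapped and the difference was 0.03 ± 0.037 (adjusted p = 0.594), and the estimates of the 6 fits that left out a library lay between 0.01 and 0.05. The Nup98 gene also encodes Nup96, a subunit of the outer ring that is cut from the same precursor, so a count at this gene covers both proteins.

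The cytoplasmic face was mixed, with 2 of 3 genes higher and 1 lower. Nup88 had 70.6, 70.4 and 66.6 CPM in fed cells, against 59.8, 58.4 and 57.9 CPM in control cells. Fed libraries were all higher, by 0.24 ± 0.043 (adjusted p = 0.000169). Nup214, its partner and a docking site for export complexes, had 90.3, 85.2 and 88.7 CPM in fed cells, against 79.1, 81.0 and 83.2 CPM in control cells. The groups did not overlap but lay close, and the call was thin: 0.12 ± 0.040 (adjusted p = 0.0242), and adjusted p between 0.0671 and 0.0908 in 4 of the 6 fits that left out a library. Ranbp2, on chromosome 10 (chr10:58446920-58494356), anchors sumoylated Rangap1 at the filaments and acts as a SUMO ligase. It measured 149, 136 and 132 CPM in fed cells, against 163, 156 and 153 CPM in control cells. All fed libraries lay below all control libraries, with a log2 fold change of -0.18 ± 0.044 (adjusted p = 0.00266), whereas Rangap1, which it holds at the pore, was higher in fed cells. On the nuclear side both basket genes that the symbol rule matches rose. The basket gene Tpr, which the rule does not match, did not pass and is described below with the other pore genes. Nup153 measured 98.0, 94.2 and 85.1 CPM in fed cells, against 75.5, 74.4 and 77.7 CPM in control cells, with fed 3 the lowest of its group but above all controls (0.29 ± 0.048, adjusted p = 8.09e-05). Nup50, which helps to release importin alpha from cargo, had 79.1, 80.0 and 83.0 CPM in fed cells, against 63.8, 67.1 and 68.4 CPM in control cells, without overlap (0.28 ± 0.042, adjusted p = 2.06e-05). The membrane nucleoporin Nup210 had 0 or 1 count per library, and Nup210l 1 to 12 counts, so neither could be compared.

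Kpna2-ps, the other member that fell, is a processed pseudogene whose whole annotated length lies within exons of Med20 on the opposite strand. It had 9, 8 and 7 counts in fed libraries, against 21, 22 and 16 counts in control libraries. The log2 fold change was -1.35 ± 0.32 (adjusted p = 0.00237), and the gene passed the filter on low counts only through its control libraries. The strand setting of the authors' counting is not given, so its reads cannot be assigned with certainty. Kpna2 itself has a nearly identical copy, Gm10184 (99.9% identity over 1968 bases), with 0 to 2 counts per library, and Nup35 has Gm4353 (99.6% over 1547 bases), with 0 to 3 counts. Reads that match both copies may have been dropped or split by the counting. Kpna2 also has the processed pseudogenes Gm10259 (99.8% identity over 1590 bases), Gm12919, Gm13310 and Gm44018, all of over 95% identity. Ran, Nup54, Tnpo1, Xpo4 and Xpot have processed pseudogenes of over 95% identity as well. The symbols of these pseudogenes are absent from the count table.

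Per kilobase of exon, levels spanned a wide range. Kpnb1 stood highest at 155 ± 3.38 CPM per kb in fed cells and 129 ± 4.44 CPM per kb in control cells (SD, n = 3 each). Ran followed at 142 ± 6.50 CPM per kb in fed cells and 107 ± 6.34 CPM per kb in control cells. Ipo5 had 91.8 ± 1.62 CPM per kb in fed cells and 83.7 ± 3.34 CPM per kb in control cells, and Ranbp1 91.1 ± 2.30 CPM per kb in fed cells and 64.8 ± 1.30 CPM per kb in control cells, so these neighbours did not differ beyond their spread in fed cells. Kpna2 had 76.7 ± 2.80 CPM per kb in fed cells and 45.4 ± 1.43 CPM per kb in control cells. Among tested nucleoporins, Nup62 was highest at 26.3 ± 0.707 CPM per kb in fed cells and 19.8 ± 0.317 CPM per kb in control cells. Nup35 was the lowest tested one at 3.38 ± 0.215 CPM per kb in fed cells and 2.28 ± 0.252 CPM per kb in control cells. Kpnb1 and Ran thus had the most transcript per length, in fed and in control cells, and all nucleoporins had less than Rangap1.

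**Figure D4:**
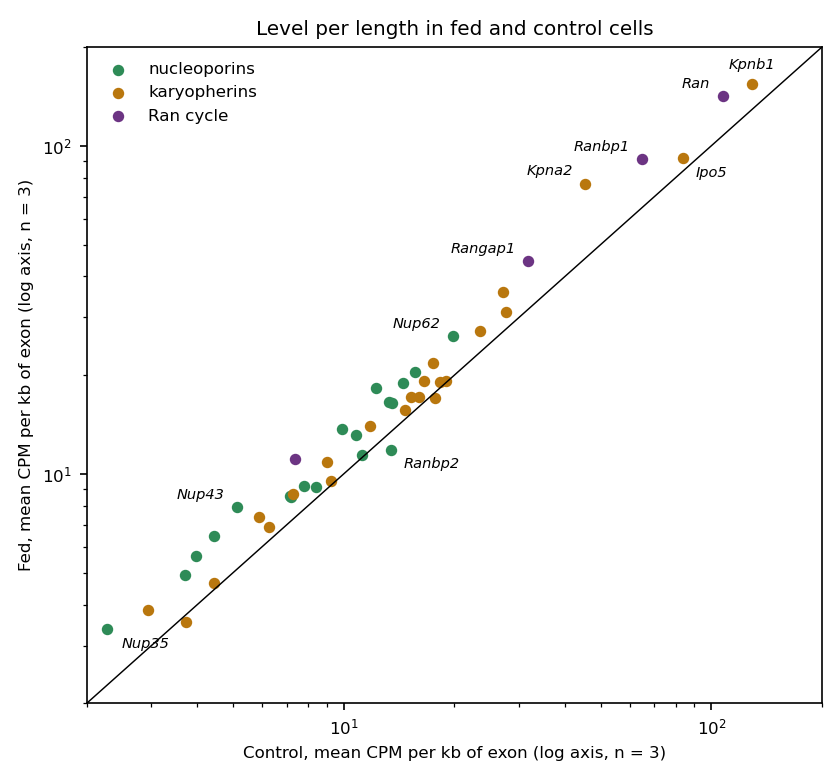
Mean level per kilobase of exon in fed cells (vertical log axis) against control cells (horizontal log axis), n = 3 libraries each, for the 46 tested members other than Kpna2-ps; the line marks equal levels and colours mark nucleoporins, karyopherins and the Ran cycle. Kpnb1, Ran, Ipo5, Ranbp1 and Kpna2 hold the 5 highest fed levels, and Ranbp2 lies under the line.

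Exon length and log2 fold change ran opposite ways among the members. Across the 46 tested members other than Kpna2-ps, Spearman's rho between exon length and log2 fold change was -0.62, and over 11830 tested genes with an annotated length it was -0.13. The correlation with mean level was -0.37 over the members and 0.01 over the tested genes. These are descriptions across genes that share the same 6 libraries. Kpna2 (2873 bases of exon), Nup43 (2560) and Nup85 (3385) were short, but Nup160 (8761) and Xpo4 (10731) were long and had log2 fold changes of 0.50 and 0.39. Long members such as Nup98 (12602), Ranbp2 (11728), Xpo7 (19005) and Ipo8 (15793) did not rise, but Xpo6 (16920) and Nup155 (11951) did. The part of transcript length in the calls was not tested.

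The list of other pore and transport genes, whose symbols the rule does not match, had 12 of 22 higher and none lower, with a median of 0.17. The share higher was 54.5%, against 20.5% of all tested genes, of which 19.0% were lower. None of the 22 was lower at an unadjusted p under 0.05 or with DESeq2. Ndc1, a membrane nucleoporin, averaged 121 ± 3.91 CPM in fed cells and 85.1 ± 4.26 CPM in control cells (SD, n = 3 each), a log2 fold change of 0.51 ± 0.043 (adjusted p = 1.24e-08). Aaas, which Ndc1 anchors at the pore, changed by 0.45 ± 0.045 (adjusted p = 1.3e-07). Ahctf1 brings the outer ring to chromatin when the nucleus reforms, and it changed by 0.34 ± 0.044 (adjusted p = 4.51e-06). Pom121, the other membrane anchor, changed by 0.25 ± 0.041 (adjusted p = 4.4e-05). Tpr, the main protein of the basket, measured 119, 105 and 101 CPM in fed cells, against 139.6, 129.6 and 109 CPM in control cells. Its groups overlapped and it did not pass at -0.22 ± 0.12 (adjusted p = 0.204), but it was lower without control 3 (-0.31, adjusted p = 0.000706).

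Lists of the cell cycle moved along with the pore genes, as did ribosome biogenesis. For comparison, 20.5% of all tested genes were higher and 19.0% lower. All 22 S-phase genes were higher in fed cells, with a median log2 fold change of 0.70, led in adjusted p by Rrm2 at 0.96, Uhrf1 at 0.77, Mcm3 at 0.77 and Pcna at 0.60. In mitosis genes 18 of 20 were higher and none lower, with a median of 0.57, among them Cdk1 at 0.70 and Aurkb at 0.74. Of ribosome biogenesis genes 17 of 20 were higher and none lower, with a median of 0.33, among them Nop58 at 0.49 and Nop56 at 0.61. None of the genes on these 3 lists was lower at an unadjusted p under 0.05 or with DESeq2. Ccnb2, a mitotic cyclin, did not pass (log2 fold change -0.10 ± 0.048, adjusted p = 0.11), but it was lower without control 1 (-0.15, adjusted p = 0.0155) and under a replicate block (-0.10, adjusted p = 0.0206). Nucleoporins (0.38) and the Ran cycle (0.49) thus had medians between those of ribosome biogenesis and mitosis, and karyopherins (0.17) had a lower one. Whether these differences between lists exceed the spread of genes was not tested, nor was the part of the cell cycle in the rise of the pore genes.

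**Figure D5:**
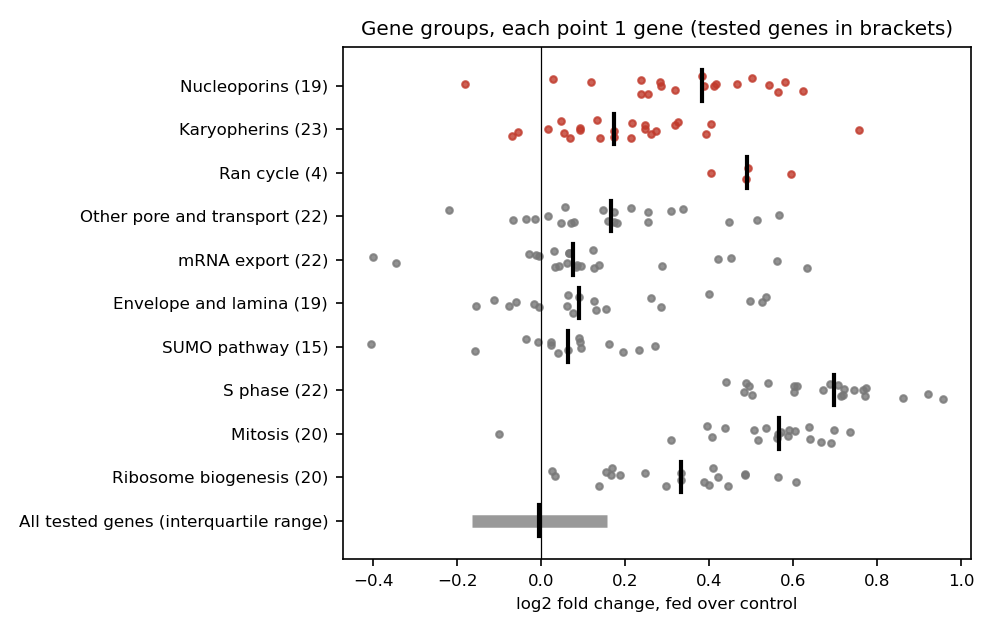
Log2 fold change of fed over control cells (horizontal axis) for each tested gene of a group; every point is 1 gene, black ticks are medians, numbers in brackets are genes tested, and the bar at the bottom spans the interquartile range of all tested genes. Nucleoporins and the Ran cycle have medians of 0.38 and 0.49, the S-phase list 0.70, and all tested genes -0.01; Kpna2-ps is not drawn.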

How the data were processed

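The authors deposited 1 table of unnormalized read counts by gene symbol. Their tools, per the submitters' processing notes, included Trimmomatic 0.36, STAR 2.6.0c, Subread 1.6.1 with featureCounts and MultiQC 1.5, on build GRCm38. For the annotation release, the strand setting and multi-mapping reads, nothing is given in the sources used here. Testing used edgeR 4.0.16 under R 4.3.3 (filterByExpr, TMM scaling, quasi-likelihood F-test with robust estimation, no replicate block), with Benjamini-Hochberg adjustment over 13092 genes. The threshold was an adjusted p under 0.05. CPM are counts per 1000000 of the TMM-scaled total. Exon lengths and coordinates come from GENCODE M21 (all 51 members matched), near-identical copies from BLAST+ 2.17.0, and promoter windows from RefSeq.

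Members, lists and tests were chosen with earlier results of these data known. Library values are given for a panel (Ran, Ranbp1, Rangap1, Rcc1, Kpna2, Kpnb1, Xpo1, Cse1l, Nup62, Nup98, Nup107, Nup153, Nup210) and for up to 3 called members per role with the largest change and a mean of at least 2 CPM; of other lists, up to 4 called genes with the smallest adjusted p are named. Values of Kpna6, Ipo8, Xpot, Tpr, Ccnb2, Sec13, Seh1l and Kpna2-ps were added after they were seen.

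Totals of 19069074 to 22410047 counts per library set the precision. Libraries of a group differed by more than sampling noise (chi-square per degree of freedom 2.57 to 5.80). Date-named features (27, 0.227% of counts) stayed in totals. On simulated counts modelled on this comparison (13002 genes), 51.0% of genes with a true log2 change of 0.25 were called, as were 84.0% of those with 0.5, 98.0% with 1 and 100% with 2, and 15 of 181 calls were unchanged genes. Only 49 or 50 genes per size were changed there, whereas 5174 genes were called in the data. The adjusted threshold was therefore stricter in the simulation, and these shares need not hold for the data. Alternatives were other scalings and filters, no robust estimation, DESeq2 1.42.0, a replicate block, an adjusted p under 0.01 and each library left out.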

Additional observations from a re-analysis of the deposited data

How the results depend on the processing

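Over 15 alternatives, 34 to 38 members were higher in fed cells. All 36 called ones stayed positive in every refit, and 33 of them passed in every refit. Leaving out 1 library gave 34 to 37 higher members, 10 to 13 higher and 0 to 1 lower genes among the other pore and transport genes, and 4144 to 5089 called genes in all. Members lower were 2, but 1 with the stricter filter, under which Kpna2-ps was not tested. Calls were lost for Nup214 (DESeq2, and without fed 1, fed 3, control 1 or control 2; adjusted p 0.0671 to 0.0908), for Xpo6 without control 1 (0.0576) and for Ipo5 without fed 2 (0.0518). Calls were gained for Tnpo1 with library totals (0.0143), the replicate block (0.0176) and without control 3 (0.0282), and for Ipo13 with library totals (0.0249). Tpr was lower without robust estimation and under the replicate block, so the count of lower genes among the other pore and transport genes was 1 there. No scaling moved the median of all tested genes beyond -0.02 to 0.03.

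Whether equal replicate numbers mark pairs was not settled. Same-numbered libraries had correlations of 0.101, 0.0220 and 0.128 after group means were removed. Each fed library correlated best with the control of its own number, but control 2 correlated slightly better with fed 1 (0.0271). With the number as a replicate block, 37 members were higher, 2 lower, and 5848 genes were called, against 3971 with DESeq2 and 3615 at an adjusted p under 0.01. At this depth Nup210, Nup210l, Nup62cl and Kpna7 could not be compared.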

Other observations

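Genes of 3 systems beside the pore were also counted, against 20.5% of all tested genes called higher and 19.0% lower. Of 19 genes of the nuclear envelope and lamina, 7 (36.8%) were higher and 2 lower in fed cells, with a median log2 fold change of 0.09. Those with the smallest adjusted p were Tmpo, a lamina-binding membrane protein also known as LAP2, at 0.53 ± 0.041 (adjusted p = 4.81e-09), the B-type lamins Lmnb1 at 0.54 ± 0.047 (adjusted p = 2.73e-08) and Lmnb2 at 0.50 ± 0.055 (adjusted p = 5.05e-07), and the lamin B receptor Lbr at 0.40 ± 0.045 (adjusted p = 6.39e-07). Lbr averaged 64.4 ± 2.48 CPM in fed cells and 48.8 ± 0.994 CPM in control cells (SD, n = 3 each). Sun2, which links the envelope to the cytoskeleton, and Tor1aip1 were the 2 lower ones, at -0.16 and -0.11.

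Of 22 genes of messenger RNA export, 6 (27.3%) were higher and 2 (9.09%) lower, with a median of 0.07, so the share called higher was near that of all tested genes. The helicase Ddx39b averaged 191 ± 6.64 CPM in fed cells and 139 ± 5.43 CPM in control cells (SD, n = 3 each), a log2 fold change of 0.45 ± 0.040 (adjusted p = 2.65e-08). Its relative Ddx39 changed by 0.56 ± 0.054 (adjusted p = 6.61e-07), the adaptor Alyref by 0.42 ± 0.053 (adjusted p = 2.62e-06) and the export receptor subunit Nxt1 by 0.63 ± 0.088 (adjusted p = 1.47e-05). Thoc2, the largest subunit of the THO complex, and Zc3h11a were lower, at -0.35 and -0.40. Of 15 genes of the SUMO pathway, through which Rangap1 is held at Ranbp2, 4 (26.7%) were higher and 2 (13.3%) lower, with a median of 0.06, also near the shares of all tested genes. Both subunits of the activating enzyme were higher, Uba2 at 0.23 ± 0.041 (adjusted p = 0.000138) and Sae1 at 0.19 ± 0.038 (adjusted p = 0.000412), as was the protease Senp1 at 0.27 ± 0.050 (adjusted p = 0.000199). The proteases Senp7 and Senp6 were lower, at -0.41 and -0.16. The lower calls were thin: 1 gene was lower on each of these 3 lists with DESeq2 and at an adjusted p under 0.01. It was also 1 in fits that left out a library: for the envelope without fed 1, fed 2, fed 3, control 2 or control 3, for messenger RNA export without fed 2, fed 3 or control 1, and for SUMO without fed 3, control 1 or control 2. For the envelope it was 1 with library totals and with no filter as well.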
